A study of Mus musculus with 2 samples.

Results

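Proteasome subunit genes were taken from the table of all genes as protein-coding genes whose symbol is Psma, Psmb, Psmc, Psmd or Psme followed by a number. The rule gave 43 genes of 54713 rows, on 16 chromosomes. They fall by nomenclature into 15 constitutive genes of the 20S core, 3 inducible catalytic subunits, 1 thymic catalytic subunit, 17 genes of the 19S cap, 3 assembly chaperones of the cap and 4 Psme activators. RNA was sequenced from 2 stable sublines of SV40 MES13, a mouse line labelled as mesangial and from kidney. One subline carried a lentivirus for the long noncoding RNA AI662270 (labelled genotype lncRNA AI662270 overexpression). The other carried the control lentivirus Lv_NC (labelled genotype WT). Both sublines had been infected, selected with puromycin and kept in puromycin in medium with fetal calf serum, and both are labelled untreated. Each group had 1 library, so each difference below compares 2 libraries, with no estimate of the spread between cultures.

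The proteasome degrades proteins that carry ubiquitin chains. Its 20S core is a barrel of alpha subunits at the ends and beta subunits in the middle, where the active sites lie. The 19S cap binds ubiquitin chains, removes them, and unfolds the substrate with a ring of ATPases. Interferon-gamma is known to induce a second set of catalytic beta subunits that replace the constitutive ones in newly built cores, which changes the peptides offered on class I molecules. Psme activators bind the core in place of the cap.

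The AI662270 library held 15062482 counts and the control library 15727023. AI662270 itself had 241 counts where it was expressed from the virus and 0 in the control library, where 3 counts is the limit that a count of 0 allows. Levels below are in CPM (each gene's share of the library's counts, on the usual scale) after TMM scaling. A ratio is the CPM in the AI662270 library over that in the control library, and the range in brackets is its 95% exact counting interval, which covers counting error only. Of 7 mesangial markers, 6 had reads, with a summed level of 59.3 CPM in the AI662270 library and 45.5 CPM in the control library, and Itga8 was at 0 counts in both. Single markers went both ways. Acta2, of contractile cells, had 171 counts in the AI662270 library and 12 in the control library, Pdgfrb had 338 in the AI662270 library and 185 in the control library, and Gata3 had 25 in the AI662270 library and 76 in the control library. Both tubule markers were more abundant than any single mesangial marker. Their summed level was 330 CPM in the AI662270 library and 371 CPM in the control library. Cdh16, a cadherin of tubule cells, made up most of that sum. The podocyte marker Nphs1 and the T cell marker Cd3e were at 0, and the endothelial and leukocyte pairs summed to under 1 CPM in each library. The labelled cell type is therefore only partly borne out by its markers, and the part of this in the results below was not tested. In such bulk RNA, fewer cells of a type and less RNA per cell cannot be told apart.

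Transcripts of the proteasome were somewhat more abundant in the AI662270 library, by small amounts in most members. The 41 measured members, those with a mean of at least 1 CPM, summed to 7140 CPM in the AI662270 library and 6306 CPM in the control library, a ratio of 1.13 (1.12 to 1.14). They took 0.739% of all counts in the AI662270 library and 0.610% in the control library. These shares are of total counts without TMM scaling. Their ratio lies above the interval just given, which does not cover the choice of scaling. The ratio was above 1 in 30 of 41 members, against 48.7% of 13268 measured genes and 41.6% of the 6026 within the members' range of levels, and in 36 of 41 members under total count or upper quartile scaling. The median log2 ratio of the members, with a pseudocount of 0.5 CPM, was 0.22, against -0.016 over all measured genes. The members lay between means of 38.2 and 529 CPM, and the 6026 genes within that range had a median of -0.088. The remaining members were Psma8, a core subunit of the testis, with 0 counts in both libraries, and Psmb11, the catalytic subunit of thymic epithelium, with 1 count in the AI662270 library and 0 in the control library.

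Few members changed by much. A member was called at a fold when its log2 ratio passed that fold and its counting interval excluded 1. At 1.5-fold, 4 of 41 members were higher in the AI662270 library, namely Psmb9, Psmd1, Psmb10 and Psmd13, against a background of 12.9% of all measured genes and 5.23% of genes in the members' range of levels. A share of 9.76% of members is below the first of these backgrounds and above the second. At 1.5-fold 0 members were lower, where 14.3% of all measured genes were. At 2-fold only Psmb9 was higher, against 5.59% of all measured genes and 1.29% of those in the range, and 0 members were lower, against 5.72% and 4.93%. Psmd13 lay just inside the 1.5-fold line with a log2 ratio of 0.60 and Psmd4 just outside it with 0.57. By the counting interval alone, 27 of 41 members were above 1, against 31.9% of all measured genes and 31.6% of those in the range, and 5 were below 1, against 35.8% and 47.9%. Beyond counting error these small ratios have no replicate to be judged by. The authors' p-values, read next, also rest on 1 library per group and so do not measure the spread between cultures. In the authors' deposited table, 0 of the 41 members with an adjusted p-value were under 0.05, where 897 of 20667 genes, or 4.34%, were.

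**Figure D1:**
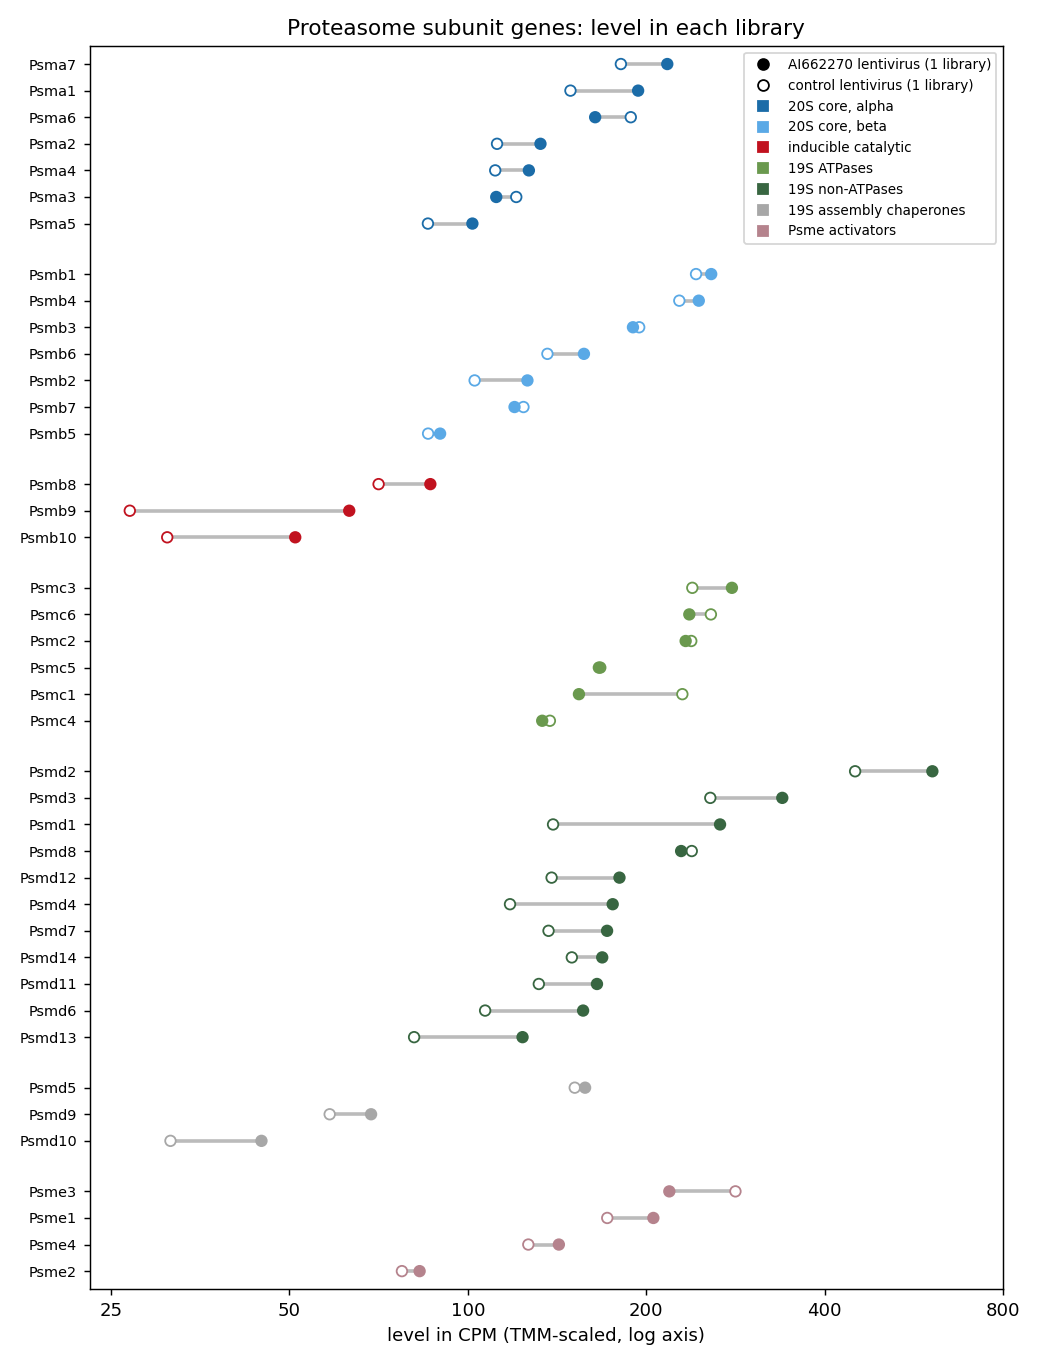
Level of each of the 41 measured members in CPM on a log axis, with filled points for the AI662270 library and open points for the control library, grouped and coloured by role. Filled points lie to the right of open ones in 30 members, and the longest gaps are those of Psmb9 and Psmd1.

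The inducible catalytic subunits showed the largest change as a group. Together the 3 genes summed to 201 CPM in the AI662270 library and 129 CPM in the control library, a ratio of 1.56 (1.47 to 1.65), and their median log2 ratio was 0.71. All 3 intervals lay above 1. The 3 genes differed in size of change, in the order Psmb9, Psmb10, Psmb8, and their intervals did not overlap each other.

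Psmb9 (ENSMUSG00000096727) encodes the inducible partner of the caspase-like site and lies in the MHC region, on chromosome 17 from 34181988 to 34187764 on the minus strand in build mm10. It had 983 counts or 63.1 CPM in the AI662270 library, against 409 counts or 26.9 CPM in the control library, and was 2.35-fold higher (2.09 to 2.64). Tap1, a gene of the transporter that takes peptides into the endoplasmic reticulum, shares 212 exon bases with it on the opposite strand. The gene model used for that overlap differs in coordinates from the deposited Psmb9. Tap1 had 2361 counts in the AI662270 library and 2313 in the control library, a log2 ratio of -0.0058, so the overlapping gene did not move with Psmb9. The strand setting of the counting is not given in the sources used here, and reads in the shared bases cannot be assigned.

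Psmb8, the inducible partner of the chymotrypsin-like site, lies close by in the same region, on chromosome 17 from 34197721 to 34201454. It had 1347 counts or 86.5 CPM in the AI662270 library, against 1075 counts or 70.7 CPM in the control library, and was 1.22-fold higher (1.13 to 1.33). Psmb10, the inducible partner of the trypsin-like site, lies on chromosome 8 from 105935735 to 105938444. It had 797 counts or 51.2 CPM in the AI662270 library, against 473 counts or 31.1 CPM in the control library, and was 1.64-fold higher (1.47 to 1.85). The inducible gene with the highest level in both libraries, Psmb8, was thus the one with the smallest change.

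Each inducible gene was then set against the constitutive gene whose place its product takes, as a ratio within a library that does not depend on scaling. The ratio of Psmb9 to Psmb6 was 2.03-fold that of the control library (1.79 to 2.32). The ratio of Psmb10 to Psmb7 was 1.70-fold (1.49 to 1.94) and that of Psmb8 to Psmb5 1.17-fold (1.04 to 1.30). All 3 pairs moved toward the inducible form. Psmb5 has a processed pseudogene, Gm3375, with 98.9% identity over 796 bases and 610 counts in the AI662270 library and 526 in the control library. With its reads added to Psmb5, the change of that pair was 1.14-fold.

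The inducible transcripts remained the minority form in both libraries. Per kilobase of deposited gene length, Psmb9 stood at 0.206 of the level of Psmb6 in the AI662270 library and at 0.101 in the control library. Psmb8 stood at 0.316 of the level of Psmb5 in the AI662270 library and at 0.271 in the control library. Psmb10 stood at 0.856 of the level of Psmb7 in the AI662270 library and at 0.503 in the control library. The deposited lengths of most members exceed those of their principal transcripts, and by principal transcript length the Psmb10 ratio was 0.378 in the AI662270 library and 0.222 in the control library. By that length the Psmb8 ratio was 0.532 in the AI662270 library and 0.456 in the control library. The Psmb9 ratio was 0.237 in the AI662270 library and 0.117 in the control library. The order of the 3 pairs by level therefore depends on the length used.

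**Figure D2:**
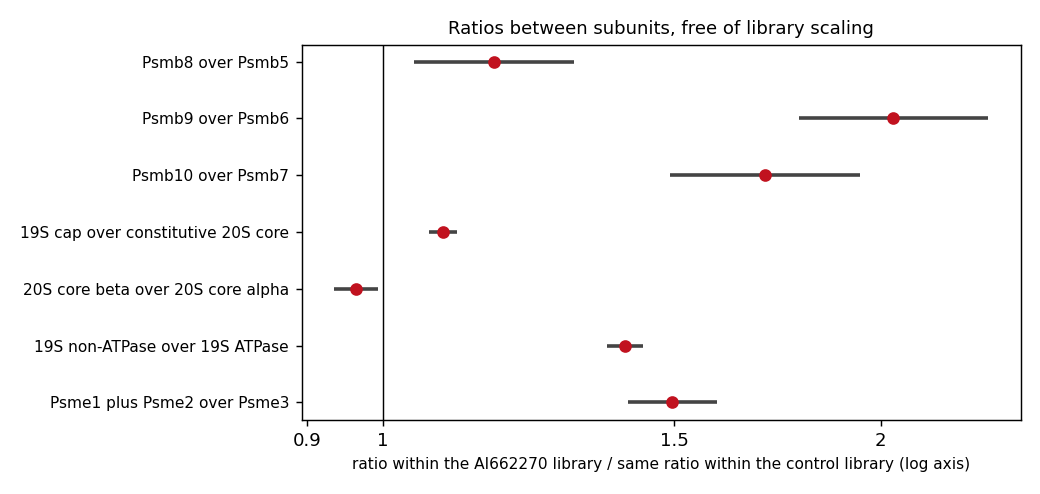
Change of 7 ratios between subunits, each formed within a library, for the AI662270 library relative to the control library on a log axis, with 95% counting intervals. Psmb9 over Psmb6 changed most at 2.03, and only the ratio of beta to alpha subunits of the core lies below 1. The ratio of Psme1 plus Psme2 to Psme3 leaves out the reads of Psme2b, a near-identical copy of Psme2.

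The constitutive 20S core changed little. Its 14 measured genes summed to 2233 CPM in the AI662270 library and 2061 CPM in the control library, a ratio of 1.08 (1.07 to 1.10), with a median log2 ratio of 0.15. The 7 measured alpha subunits, which form the outer rings and gate the entry to the barrel, had a median of 0.24. Of these, Psma1, Psma7, Psma5, Psma2 and Psma4, had ratios between 1.14 and 1.30. Psma1 was the highest of these, with 194 CPM in the AI662270 library and 149 CPM in the control library, a ratio of 1.30 (1.23 to 1.37). Psma3 and Psma6 went the other way. Psma3 had 112 CPM in the AI662270 library and 121 CPM in the control library, a ratio of 0.925 (0.866 to 0.988). Psma6 had 164 CPM in the AI662270 library and 188 CPM in the control library, a ratio of 0.871 (0.825 to 0.919).

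The 7 constitutive beta subunits had a median log2 ratio of 0.085. Of the genes of the 3 active sites, Psmb5 and Psmb7 were close to even and Psmb6 was somewhat higher. Psmb5, of the chymotrypsin-like site, had 89.8 CPM in the AI662270 library and 85.7 CPM in the control library, a ratio of 1.05 (0.971 to 1.13). Psmb6, of the caspase-like site, had 157 CPM in the AI662270 library and 136 CPM in the control library, a ratio of 1.15 (1.09 to 1.22). Psmb7, of the trypsin-like site, had 120 CPM in the AI662270 library and 124 CPM in the control library, a ratio of 0.966 (0.906 to 1.03). The interval of Psmb6 alone excluded 1. Among the beta subunits without an active site, Psmb2 was highest at 1.23 (1.15 to 1.31), Psmb4 and Psmb1 had 1.08 and 1.06, and Psmb3 had 0.976 (0.927 to 1.03). Psmb7 shares 405 exon bases with Nek6 on the opposite strand, and Nek6 had 1257 counts in the AI662270 library and 846 in the control library.

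The 19S cap split between its ATPases and its other subunits. The 11 non-ATPase genes summed to 2583 CPM in the AI662270 library and 1947 CPM in the control library, a ratio of 1.33 (1.31 to 1.35), and 10 of the 11 intervals lay above 1. The 6 ATPase genes summed to 1202 CPM in the AI662270 library and 1269 CPM in the control library, a ratio of 0.947 (0.928 to 0.966), and 1 of 6 intervals lay above 1. Psmc1, on chromosome 12, had 154 CPM in the AI662270 library and 230 CPM in the control library. That difference in CPM is larger than that of the sum, so the other ATPase genes together were not lower. Neither this sum nor the within-library ratio below was recomputed without Psmc1. The median log2 ratios were 0.40 for the non-ATPases and -0.037 for the ATPases, and the sign of the ATPase median turned with scaling, to 0.060 with total counts and 0.032 with the upper quartile. Within a library, non-ATPase counts over ATPase counts were 2.15 in the AI662270 library and 1.53 in the control library, a change of 1.40-fold (1.37 to 1.44).

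Psmd1 (ENSMUSG00000026229), one of the 2 large scaffold subunits of the cap, lies on chromosome 1 from 86064387 to 86139151. It had 4150 counts or 266 CPM in the AI662270 library, against 2117 counts or 139 CPM in the control library, and was 1.91-fold higher (1.81 to 2.02). Its partner Psmd2, the most abundant member, had 608 CPM in the AI662270 library and 450 CPM in the control library, a ratio of 1.35 (1.31 to 1.39). Psmd1 therefore moved further than its partner, with intervals that do not overlap. Htr2b, which shares 252 exon bases with Psmd1 on the opposite strand, had 3 counts in the AI662270 library and 5 in the control library.

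The ubiquitin-handling subunits also had ratios above 1. Psmd4, a receptor for ubiquitin chains, had 176 CPM in the AI662270 library and 118 CPM in the control library, a ratio of 1.49 (1.40 to 1.58). Psmd14, the enzyme that cuts the chain off the substrate, had 169 CPM in the AI662270 library and 150 CPM in the control library, a ratio of 1.13 (1.06 to 1.19). Its structural partner Psmd7 had 172 CPM in the AI662270 library and 137 CPM in the control library, a ratio of 1.26 (1.19 to 1.33). These 3 genes thus ran from little to nearly 1.5-fold.

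The remaining 6 genes also belong to the lid, which holds the chain-cutting enzyme in place. Psmd13 (chromosome 7, from 140881968 to 140898643) had 1927 counts or 124 CPM in the AI662270 library, against 1234 counts or 81.2 CPM in the control library, and was 1.52-fold higher (1.42 to 1.64). Psmd13 overlaps Sirt3 over 342 exon bases on the opposite strand, and Sirt3 had 163 counts in the AI662270 library and 158 in the control library. Psmd6 had 156 CPM in the AI662270 library and 107 CPM in the control library, a ratio of 1.46 (1.37 to 1.56). Psmd3, Psmd12 and Psmd11 had ratios of 1.32, 1.30 and 1.25. Psmd8 was the exception among the 11, with 229 CPM in the AI662270 library and 239 CPM in the control library, a ratio of 0.960 (0.916 to 1.01).

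The ATPases form the ring that pulls the substrate into the core. Psmc3 had the highest ratio among them, with 279 CPM in the AI662270 library and 239 CPM in the control library, a ratio of 1.17 (1.12 to 1.22). Psmc2, Psmc4 and Psmc5 had ratios of 0.978, 0.971 and 0.995, with intervals that hold 1. The log2 ratios of these 3 turned positive under other scalings, to 0.066 for Psmc2, 0.054 for Psmc4 and 0.090 for Psmc5 with total counts, and those of Psmb3, Psmb7 and Psmd8 turned as well. Psmc6 had 236 CPM in the AI662270 library and 257 CPM in the control library, a ratio of 0.920 (0.879 to 0.962). Psmc1, on chromosome 12 from 100110154 to 100123405, had the lowest ratio of all 41 members. It had 2399 counts or 154 CPM in the AI662270 library, against 3498 counts or 230 CPM in the control library, and was 1.49-fold lower (1.42 to 1.57), just short of the 1.5-fold line.

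**Figure D3:**
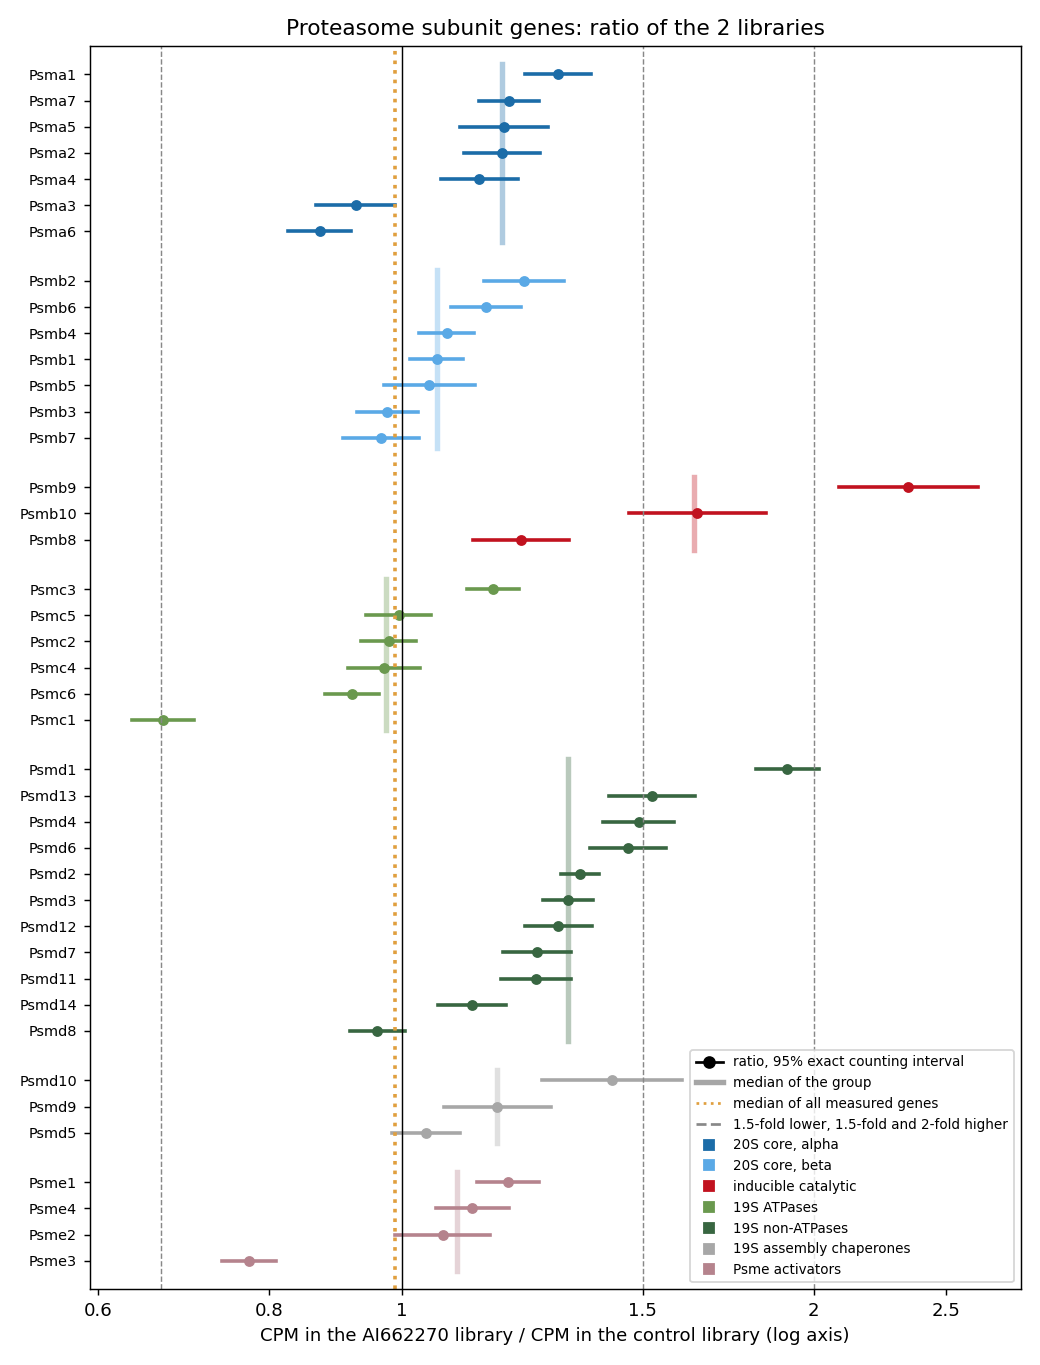
Ratio of CPM, AI662270 library over control library, for each measured member on a log axis, with 95% exact counting intervals and the median of each group. Non-ATPase genes of the cap centre on a log2 ratio of 0.40 and inducible genes on 0.71, while the ATPases centre on -0.037, a median whose sign turned under total count and upper quartile scaling.

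Assembly chaperones bind the cap's ATPases while it is built and are not part of the finished particle. Psmd10, also known as gankyrin, had 44.9 CPM in the AI662270 library and 31.5 CPM in the control library, a ratio of 1.42 (1.27 to 1.60). Psmd9 had 68.7 CPM in the AI662270 library and 58.5 CPM in the control library, a ratio of 1.17 (1.07 to 1.29). Psmd5 had 158 CPM in the AI662270 library and 151 CPM in the control library, a ratio of 1.04 (0.983 to 1.10). Their intervals order Psmd10 above Psmd5, and that of Psmd9 touches both.

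The Psme activators went both ways. Psme1, which with Psme2 forms the activator that interferon-gamma induces, had 206 CPM in the AI662270 library and 172 CPM in the control library, a ratio of 1.20 (1.14 to 1.26). Psme2 had 82.9 CPM in the AI662270 library and 77.4 CPM in the control library, a ratio of 1.07 (0.989 to 1.16). Psme3, which forms a separate activator of the nucleus, had 3408 counts or 219 CPM in the AI662270 library, against 4299 counts or 283 CPM in the control library, and was 1.29-fold lower (1.24 to 1.35). Psme4, a large single-chain activator, had 142 CPM in the AI662270 library and 126 CPM in the control library, a ratio of 1.13 (1.06 to 1.20). Psme3 lies on chromosome 11 from 101316213 to 101323537, where the median over the measured genes was 0.027 on the log2 scale. The counts of Psme1 and Psme2 together over those of Psme3 were 1.32 in the AI662270 library and 0.882 in the control library, a change of 1.496-fold (1.41 to 1.59). Psme2 is counted there without its near-identical copy Psme2b, described next. The reads of Psme2b would make this change smaller, and it was not recomputed with them.

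The value of Psme2 is uncertain. Psme2b, a protein-coding copy on chromosome 11, matches the Psme2 transcript at 99.4% over 794 bases. Psme2b had 1089 counts in the AI662270 library and 1466 in the control library, a ratio 1.38-fold lower. With the reads of both summed, Psme2 had 2381 counts in the AI662270 library and 2643 in the control library, a ratio of 0.879 (0.831 to 0.929), so the direction of Psme2 turns with the assignment of shared reads. In all, 6 members had 9 copies at 95% identity or more over at least 50% of the transcript. For the other 5, adding the reads of copies left the ratio within the member's own counting interval, though that of Psmb5 became 1.07 (1.01 to 1.14) and so excluded 1.

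Members on chromosome 12 stood apart. The 5 members whose interval lay below 1 were Psmc1, Psme3, Psma6, Psma3 and Psmc6, and 3 of these are the only members on chromosome 12. The 477 measured genes of that chromosome had a median log2 ratio of -0.35. The 40 nearest measured genes, 20 on each side, had medians of -0.51 around Psmc1, -0.41 around Psma3 and -0.34 around Psma6. The members' own log2 ratios were -0.58 for Psmc1, -0.11 for Psma3 and -0.20 for Psma6. After the median of each member's chromosome was taken off, Psmc1 stood at -0.23, Psma3 at 0.24 and Psma6 at 0.15. Psma3 and Psma6 thus changed sign, and the part of chromosome 12 in these values was not tested. Without the chromosome 12 members the median of the core was 0.20 and that of the ATPases -0.031. The neighbours of Psmb9 and of Psmb8 had a median of -0.020 and those of Psmd1 one of -0.054.

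**Figure D4:**
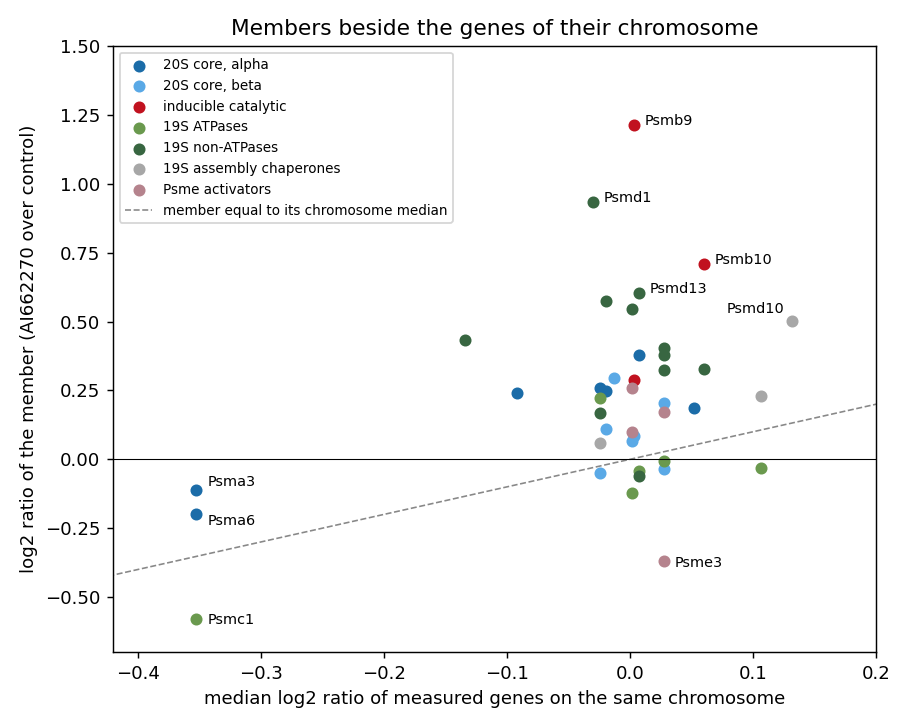
Log2 ratio of each member against the median log2 ratio of measured genes on its chromosome, with a dashed line where both are equal. Psmc1, Psma3 and Psma6 share the chromosome with a median of -0.35, and Psmb9 and Psmd1 stand far above chromosomes with medians near 0.

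Promoters are shown for the 4 members called at 1.5-fold. RefSeq windows in build GRCm38.p6, from 250 bases before to 50 after the start, were on hand for 36 of 43 members in 39 windows. They were searched on both strands for TGANNNNGC, the core of the antioxidant response element bound by the factors NRF1 and NRF2 of proteasome genes, for the NF-Y box CCAAT, for the gamma-activated sequence TTCNNNGAA and for an interferon element core, 2 GAAA blocks in a row with any 2 bases between them. In the sequences below capitals mark each match, and in no member's window did matches of different motifs overlap. Psmb9 at chr17:34187281-34187580 and Psmb10 at chr8:105938343-105938642 are on the minus strand, and Psmd1 at chr1:86064369-86064668 and Psmd13 at chr7:140882144-140882443 on the plus strand.
Psmb9: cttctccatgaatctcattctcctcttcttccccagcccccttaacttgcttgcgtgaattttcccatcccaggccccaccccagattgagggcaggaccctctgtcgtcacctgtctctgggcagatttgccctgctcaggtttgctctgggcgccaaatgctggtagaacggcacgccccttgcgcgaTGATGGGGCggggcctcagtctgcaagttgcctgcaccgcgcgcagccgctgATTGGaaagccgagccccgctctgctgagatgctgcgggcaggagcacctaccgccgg
Psmb10: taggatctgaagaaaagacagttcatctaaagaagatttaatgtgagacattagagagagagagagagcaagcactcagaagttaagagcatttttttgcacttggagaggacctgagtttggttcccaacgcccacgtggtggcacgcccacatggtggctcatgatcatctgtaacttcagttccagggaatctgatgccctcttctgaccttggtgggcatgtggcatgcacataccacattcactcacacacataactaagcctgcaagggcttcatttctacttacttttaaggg
Psmd1: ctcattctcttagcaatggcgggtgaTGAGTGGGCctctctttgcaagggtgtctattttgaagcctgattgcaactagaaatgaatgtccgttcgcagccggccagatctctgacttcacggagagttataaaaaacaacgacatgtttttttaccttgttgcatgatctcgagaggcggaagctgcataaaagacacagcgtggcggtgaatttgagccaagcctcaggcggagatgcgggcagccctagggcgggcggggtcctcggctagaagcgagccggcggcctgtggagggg
Psmd13: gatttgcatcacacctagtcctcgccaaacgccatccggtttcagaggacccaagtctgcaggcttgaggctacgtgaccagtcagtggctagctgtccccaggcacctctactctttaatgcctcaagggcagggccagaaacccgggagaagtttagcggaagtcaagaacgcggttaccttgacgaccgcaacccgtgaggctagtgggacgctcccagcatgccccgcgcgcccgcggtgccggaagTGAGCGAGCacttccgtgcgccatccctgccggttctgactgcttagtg

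The Psmb9 window held an antioxidant core at -60 and an NF-Y box, read on the other strand, at -8, counted from 0 at the RefSeq start of the window. The windows of Psmb9 and Psmd13 lie wholly inside the deposited genes, so their RefSeq starts are not the deposited gene starts. Those of Psmd1 and Psmb10 are not either. Their deposited starts, at 86064387 and 105938444, lie within the windows, upstream of the RefSeq starts. Psmd1 held an antioxidant core at -224 and Psmd13 one at 1, and the Psmb10 window held none of the 4 motifs. The Psmd1 core thus lies inside the deposited gene, not before its start. Over all members the antioxidant core was in 23 of 39 windows, or 59.0%, against 41.3% of 32851 windows of all genes. Counted by gene, the gap was narrower, with 21 of 36 members, or 58.3%, against 45.0% of 27025 genes. The NF-Y box was in 35.9% of member windows and 37.4% of all windows. The gamma-activated sequence was in 2 member windows, those of Psmb8 and Psmd2, or 5.13%, against 8.30% of all windows. The interferon core was in 4, those of Psmb3, Psmd4, Psmd9 and Psme1, or 10.3%, against 3.44% of all windows. These short patterns recur often, so a match describes the letters of the window only.

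Genes around the proteasome, from 9 lists, were then read beside the members. Their calls were made under TMM scaling only and were not recomputed under other scalings. The 5 factors that assemble the core had a median log2 ratio of 0.41, with 0 called at 1.5-fold in either direction. The most abundant were Pomp, which matures the beta ring, with 1919 counts in the AI662270 library and 1285 in the control library and a ratio of 1.46 (1.36 to 1.57), and Psmg2, at 1.39 (1.22 to 1.59). Of the cap genes outside the symbol rule, the ubiquitin receptor gene Adrm1 had a ratio of 1.37 (1.27 to 1.48) and Sem1 1.01 (0.898 to 1.14). Among 8 inhibitors and bound factors, 0 were higher at 1.5-fold, against 12.9% of all measured genes, and 2 were lower, against 14.3%. Zfand5, a proteasome-binding zinc finger gene, was 1.76-fold lower (1.66 to 1.86). Akirin2, which is known for import of proteasomes into the nucleus, was 1.52-fold lower (1.39 to 1.66). It lay just past the 1.5-fold line, with a log2 ratio of -0.60, so its call may depend on the scaling.

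Several regulators of proteasome transcription were lower in the AI662270 library. Nfe2l1, which encodes the factor NRF1 that drives proteasome genes when proteasome activity falls, had 4327 counts in the AI662270 library and 8570 in the control library and was 2.03-fold lower (1.96 to 2.11). Its small Maf partner genes were lower as well. Maff had 835 counts in the AI662270 library and 2456 in the control library and was 3.01-fold lower (2.79 to 3.26). Mafk was 2.13-fold lower (1.95 to 2.33) and Mafg 1.60-fold lower (1.51 to 1.69). The exception past 1.5-fold was Vcp, the p97 ATPase that extracts NRF1 from the endoplasmic reticulum, with 5848 counts in the AI662270 library and 3231 in the control library and a ratio of 1.77 (1.69 to 1.84). Of 11 genes in this list, 1 was higher at 1.5-fold, against 12.9% of all measured genes, and 4 were lower, against 14.3%. The median log2 ratio of the list was -0.37. NRF1 is controlled by cleavage and by its own breakdown, which RNA does not show.

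Ubiquitin genes have many pseudogenes, which makes their counts uncertain. Rps27a, a fusion of ubiquitin and a ribosomal protein, had 2014 counts in the AI662270 library and 5146 in the control library and was 2.62-fold lower (2.49 to 2.76). Ubb, a polyubiquitin gene, had 9326 counts in the AI662270 library and 9796 in the control library, a ratio of 0.929 (0.903 to 0.956). Among shuttles and p97 cofactors, Ubqln2 was 1.83-fold higher (1.68 to 1.98), while Sqstm1, which carries ubiquitinated cargo to autophagy, was 1.83-fold lower (1.76 to 1.90). The activating enzyme genes Uba1 and Uba6 had ratios of 1.38 (1.33 to 1.43) and 1.24 (1.16 to 1.33). Input genes and subunit genes thus did not share a direction.

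The inducers of the immunoproteasome that are given here did not share a direction. Irf8, an interferon regulatory factor, had 629 counts in the AI662270 library and 323 in the control library and was 1.90-fold higher (1.66 to 2.18). Irf1 had 1314 counts in the AI662270 library and 1312 in the control library, a ratio of 0.977 (0.905 to 1.06), and Nlrc5, the activator of class I genes, had a ratio of 0.731 (0.669 to 0.7997). Of 9 peptide loading partners, 4 were higher at 1.5-fold, against 12.9% of all measured genes, and 0 lower, against 14.3%, with a median log2 ratio of 0.56. The 4 were Calr, Pdia3, B2m and H2-K1, with ratios of 2.68, 2.10, 2.10 and 1.56, of which H2-K1 is uncertain since class I genes are near copies of each other. Tap1, Tap2 and Tapbp, the transporter and its bridge, had ratios of 0.996, 1.14 and 0.914.

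**Figure D5:**
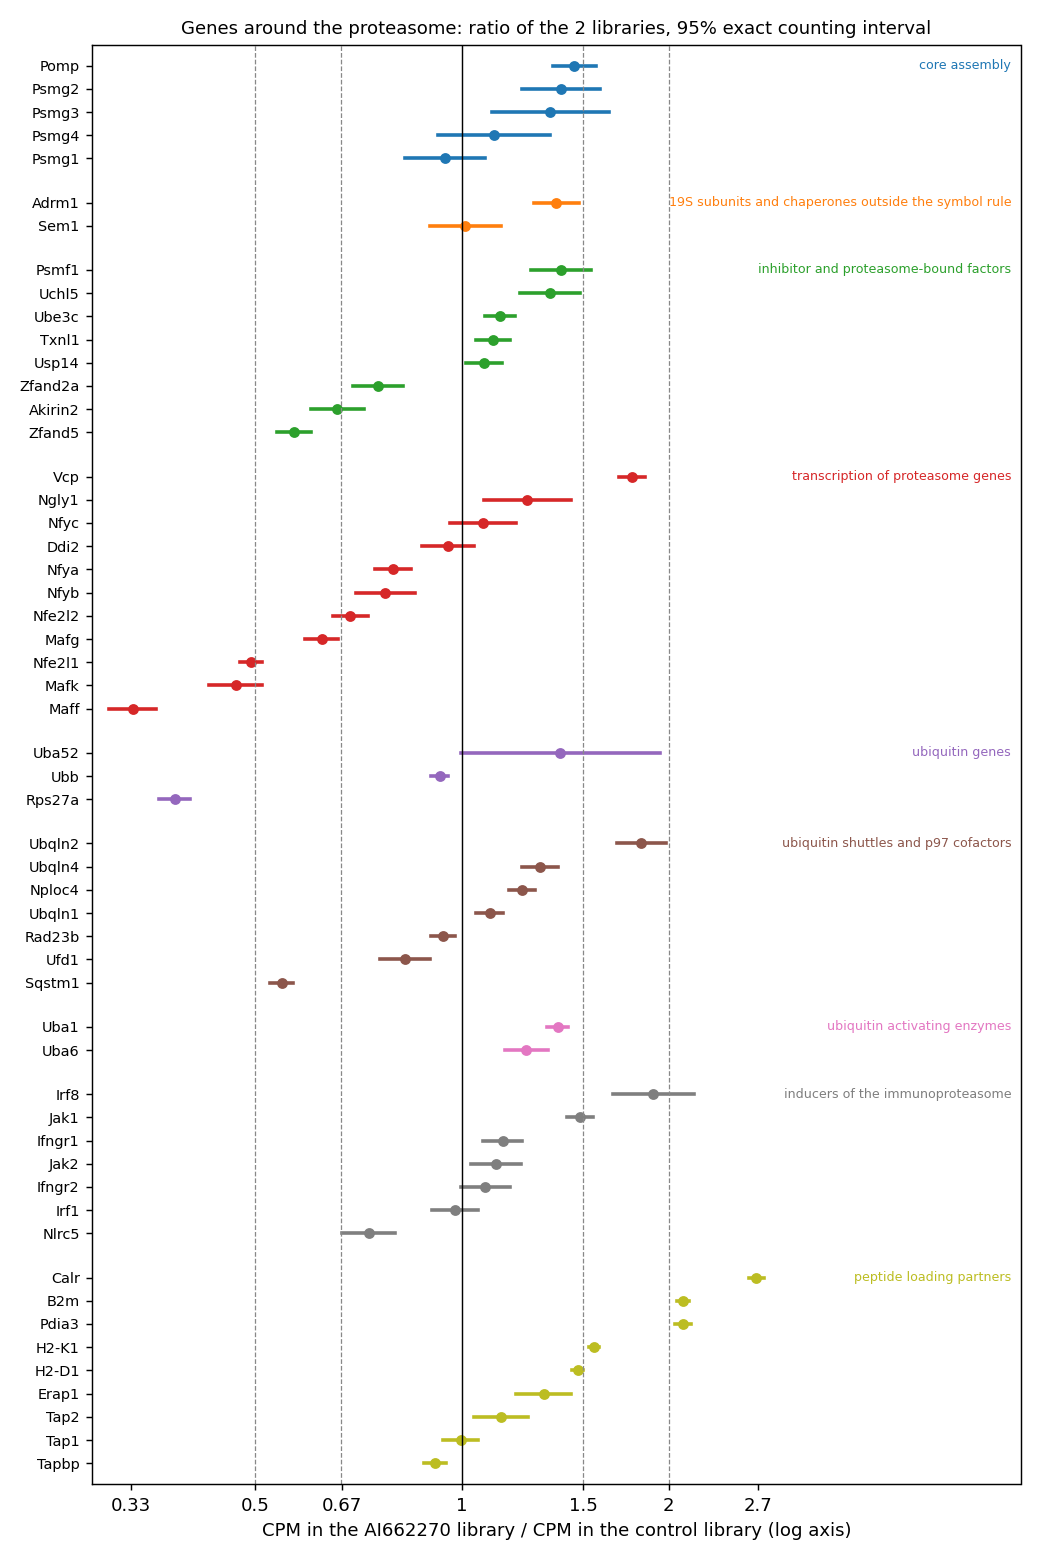
Ratio of CPM, AI662270 library over control library, for measured genes from 9 lists around the proteasome, those reported here, on a log axis, with 95% exact counting intervals. Nfe2l1 and its Maf partners lie to the left of 1 and Calr, B2m and Pdia3 to the right of 2.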

How the data were processed

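RNA of 2 stable sublines, 1 library each, was measured. CASAVA 1.4, TopHat2 and build mm10 are named in the submitters' processing notes. For the read counter, the annotation and the strand, the sources used here name nothing. Raw read counts, one whole number for each gene and library, are the deposited values used. The deposited FPKM columns were used only as an alternative. The deposited signal columns, counts that the authors rescaled, and the authors' log2 fold changes and p-values were not used, except for the number of genes under an adjusted p-value of 0.05. The second deposited table holds the same 897 genes.

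Libraries were scaled over all rows with TMM (edgeR 4.0.16, R 4.3.3). Ratios and exact intervals were computed in Python 3.11.15 with scipy 1.17.1, with a pseudocount of 0.5 CPM for log2 values only. Genes with a mean under 1 CPM were left out as not measured. No p-value was computed, since 1 library a group leaves no spread, and the self-check of the call rule was run on simulated data. Intervals of sums of genes and of ratios between subunits treat reads as independent. Gene models are those of GENCODE M21, with the coordinates of 41 of 43 members equal to the deposited ones. The exceptions are Psma8 and Psmb9, so the exon overlap and principal length of Psmb9 rest on a model that differs from the deposited gene. Principal transcripts were, for each gene, the longest of those with the best APPRIS principal rank. Copies were sought with megablast over principal transcripts. Members and lists were chosen with earlier results of these data known. Named genes are all members, and from the related lists those past 1.5-fold or the 2 most abundant. Some genes of the lists are not reported here. Ubb, Irf1, Nlrc5, Tap1, Tap2 and Tapbp were named after their values were seen.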

Additional observations from a re-analysis of the deposited data

How the results depend on the processing

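Scaling by total counts called 7 members at 1.5-fold and 2 at 2-fold, and gave median log2 ratios of 0.25 for the constitutive core, 0.42 for the cap, 0.060 for its ATPases, 0.50 for its non-ATPases and 0.32 for all measured members. Upper quartile scaling called 2 members at 2-fold and gave 0.47 for the non-ATPases and 0.29 for all members. Psmd1 joined Psmb9 at 2-fold under both, and 6 members changed sign, which left 36 of 41 above 0. The median over all measured genes ran from -0.016 with TMM to 0.080 with total counts, and the sign of the ATPase median turned under both scalings. DESeq2 1.42.0 size factors, pseudocounts of 0.1 and 2 CPM, no filter, a mean of at least 5 CPM and the FPKM columns called 4 or 5 members at 1.5-fold and Psmb9 alone at 2-fold. Psmb9, Psmd1, Psmb10 and Psmd13 were higher at 1.5-fold, and 0 members lower, under every setting tried. Settings chosen after seeing the data were leaving out chromosome 12, subtracting chromosome medians and adding near-identical copies. Adding copies gave the Psme activators a median of -0.0075 through Psme2. No paired analysis was possible because each group has 1 library, and for the same reason no replicate could be left out.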

Other observations

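Per kilobase of principal transcript, alpha subunits of the core ran from 39.2 to 237 CPM in the AI662270 library and from 38.5 to 198 in the control library. The low ends were those of Psma3 and Psma2, with principal transcripts of 2846 and 2911 bases. Those of the other measured alpha subunits had 914 to 1239 bases, so this range depends on the transcript chosen. ATPases of the cap ran from 92.7 to 170 CPM per kilobase in the AI662270 library and from 95.5 to 146 in the control library. Non-ATPases ran from 58.0 to 205 CPM per kilobase in the AI662270 library and from 40.8 to 155 in the control library. The assembly chaperones of the cap, at 26.4 to 35.9 CPM per kilobase in the AI662270 library and 22.0 to 34.5 in the control library, lay below both of these groups.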
